A study of Mus musculus with 2 samples.

Results

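The genes described here are 8 regulators of early embryonic lineages, Sox17, Gata6, Foxa2, T, Pax6, Olig2, Sox1 and Cdx2, examined for the regions enriched in the histone variant H2A.Z around each of them in mouse embryonic stem cells. Regions were taken by position alone, as every listed region that touched a fixed window of 30, 40 or 60 kb (mm9) around each gene. This gave 61 of 99812 wild-type and 67 of 114028 K3R3 regions in the looser lists, and 60 of 97146 and 68 of 110435 in the stricter lists. The lists are named by the thresholds 1e-09 (looser) and 1e-12 (stricter), and a region in them has a position but no height or score.

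The study compared 2 kinds of cells, with 1 library each. Both were embryonic stem cells given the strain V6.5 (129SvJaexC57BL/6), described in the protocol as KH2 lines infected with lentivirus and grown with serum and LIF. Both carried a YFP-tagged H2A.Z transgene under a CMV promoter with an inducible rtTA system, received 1 µg/ml doxycycline, were sorted for YFP, and carried a hairpin directed against the endogenous H2A.Z transcript. They differ in the transgene, which is either wild-type H2A.Z or H2A.Z.K3R3, in which 3 lysines near the C-terminus are arginines. The antibody, Abcam Ab290, is directed against the fluorescent tag, so the regions show where the tagged, induced protein was found, and the protocol does not call either line a single clone. A single library per group allows no replicate check, and no test between the groups was made. The depth of sequencing is unknown, and how much read depth, the amount of tagged protein or the mutation contributes to any difference cannot be told apart.

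H2A.Z replaces H2A in nucleosomes at many promoters and enhancers. In embryonic stem cells it is known to be enriched at developmental genes whose promoters carry both the active mark H3K4me3 and the Polycomb mark H3K27me3, a state called bivalent. Such genes are silent or nearly so but can be switched on during differentiation. Mono-ubiquitylation of the C-terminal lysines of H2A.Z, carried out by the Polycomb enzyme Ring1b, is associated with silent chromatin, and the K3R3 protein cannot be modified at the replaced lysines. The series concerns H2A.Z mono-ubiquitylation and poised chromatin, and the comparison at these loci asks whether the protein that lacks the lysines occupies poised genes as the wild type does. No histone marks and no expression values were analysed here, so bivalency and the embryonic stem cell identity were not checked on these data.

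Promoters of genes of this class are commonly rich in the dinucleotide CG, and those of the loci are shown here because H2A.Z in stem cells is concentrated in such sequence. RefSeq promoters (GRCm38.p6, 250 bases before to 50 after the transcription start) were found for 6 of the 8 genes, with 9 promoters in all. None was found for Sox17 or Gata6. The 9 promoters held 12 to 37 CG dinucleotides with a median of 18, against a median of 7 over 32851 promoters of the same length. The upper quartile of all promoters was 20, and 29.7% of them held at least 18. The observed number of CG over that expected from base composition was 0.548 to 1.07, with a median of 0.731 against 0.384 for all promoters. It was above 0.6 in 8 of the 9 promoters and in 35.8% of all promoters. The CCAAT motif (searched as CCAAT on both strands) was found in 6 of the 9 and in 37.4% of all promoters, and TATAAA, also on both strands, in 2 of the 9 and in 13.6%. Counted over all 300 bases, Sox1 had the most CG (37) and the first of 3 Foxa2 promoters the fewest (12). The 100 bases before the start, 5′ to 3′ with each CG in capitals, are given for these 2 and for Olig2 and Cdx2. These stretches alone held 4 CG at Sox1, 4 at Foxa2, 8 at Olig2 and 8 at Cdx2. They lie at chr8:12395419-12395518 (plus strand), chr2:148046970-148047069 (minus), chr16:91225450-91225549 (plus) and chr5:147307250-147307349 (minus) of GRCm38.p6, and were not placed against the mm9 regions.
Sox1: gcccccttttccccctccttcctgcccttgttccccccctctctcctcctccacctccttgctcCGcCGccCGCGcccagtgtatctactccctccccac
Foxa2: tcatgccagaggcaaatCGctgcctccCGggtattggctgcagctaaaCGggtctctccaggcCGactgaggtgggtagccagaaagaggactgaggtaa
Olig2: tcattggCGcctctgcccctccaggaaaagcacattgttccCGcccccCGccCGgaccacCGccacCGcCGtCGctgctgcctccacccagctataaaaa
Cdx2: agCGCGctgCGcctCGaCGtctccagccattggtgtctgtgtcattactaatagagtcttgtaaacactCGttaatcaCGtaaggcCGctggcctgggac

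All 8 loci were occupied by both proteins, and mostly at the same places. Over 320 kb of windows, wild-type regions covered 54.9 kb (17.2% of the windows) and K3R3 regions 52.3 kb (16.3%), of which 49.2 kb was common. The Jaccard index, the length covered in both libraries over that covered in either, was 0.850 at the loci and 0.643 over the whole lists. Of the wild-type regions 57 of 61 (93.4%, 95% Wilson interval 84.3 to 97.4) touched a K3R3 region, against 81.6% of the whole list, and of the K3R3 regions 60 of 67 (89.6%, 80.0 to 94.8) touched a wild-type region, against 71.9%. The intervals cover counting error only and treat neighbouring regions as independent. Width moves with sharing. Median widths at the loci were 675 bp for wild-type and 575 bp for K3R3 regions, where both whole lists had 325 bp. All 39 wild-type and 43 K3R3 regions of at least 400 bp at the loci were shared, where the whole lists gave 89.3% and 86.1% between 400 and 800 bp, 93.7% and 94.2% between 800 and 2000 bp, and 97.7% and 98.5% from 2000 bp. The part of width in the higher sharing at the loci was not tested further. The 11 regions without a partner were narrow, at 75 to 350 bp in the wild type and 25 to 300 bp in K3R3.

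**Figure D1:**
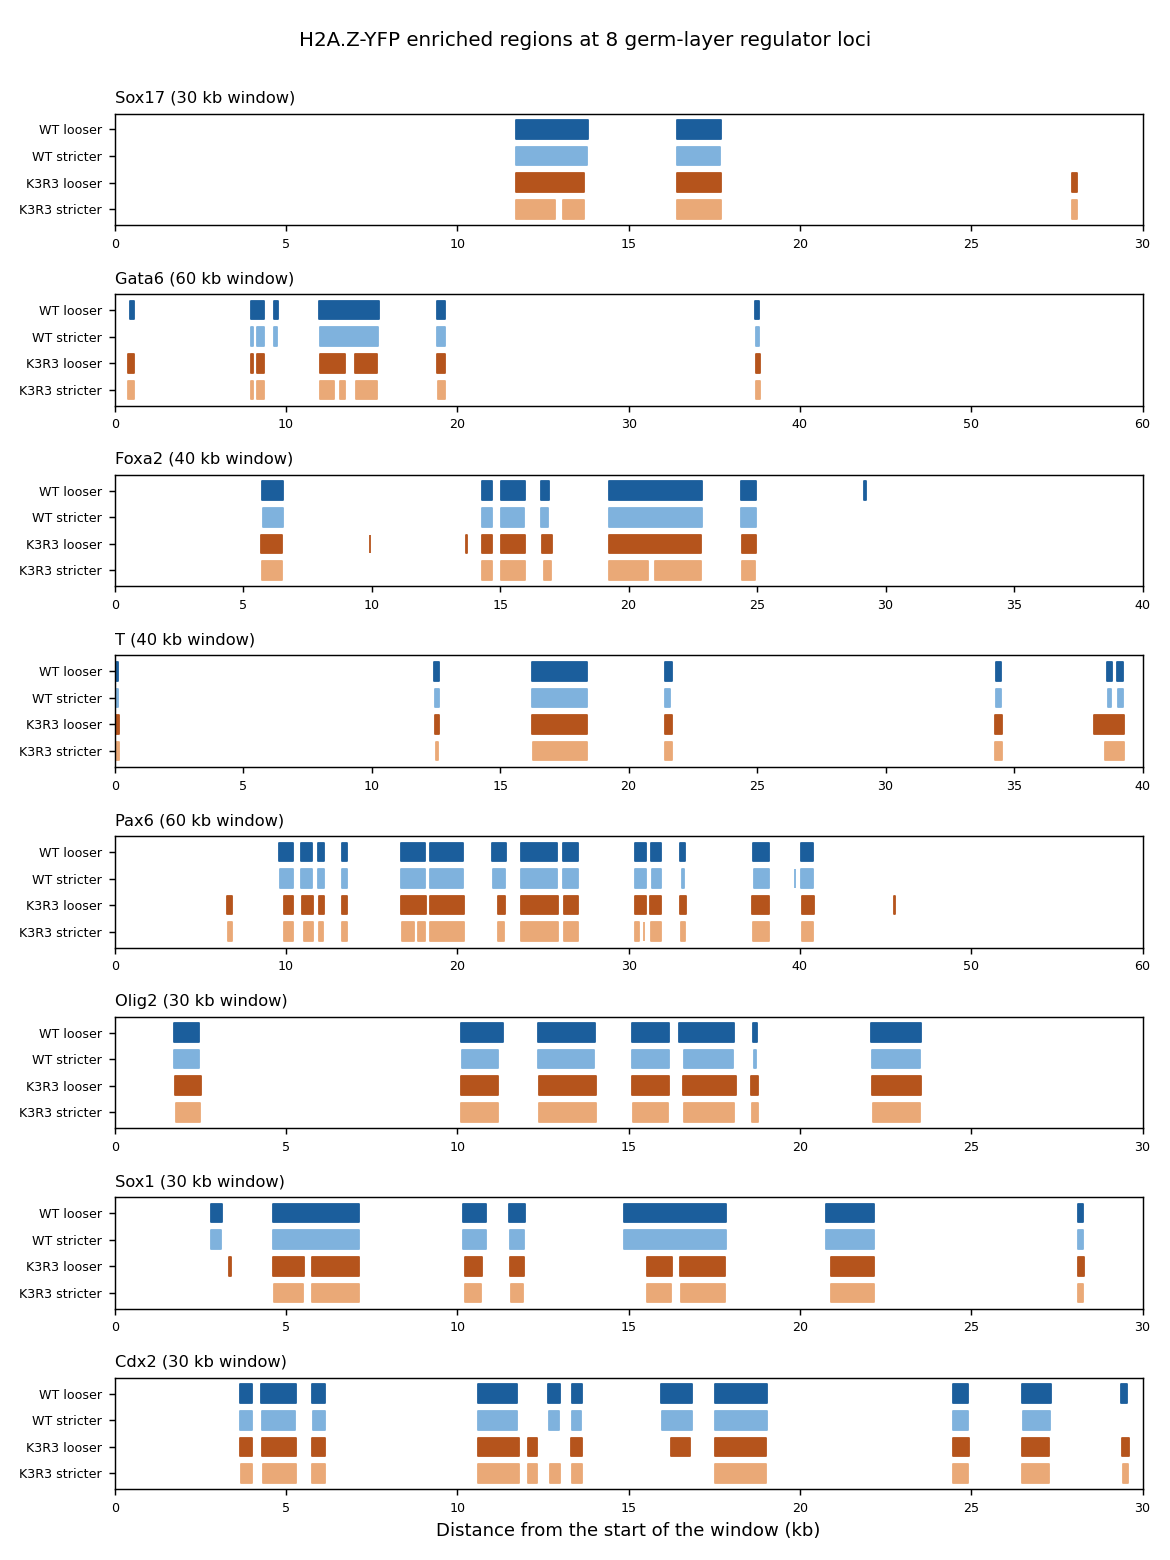
Enriched regions in the window of each of the 8 genes, drawn against the distance from the start of the window in kb, with 1 track for each library and list (blue, WT; orange, K3R3; dark, looser; light, stricter); narrow regions are drawn with a thin outline so that they can be seen. The same groups of regions recur in all 4 tracks. The differences include gaps within broad regions at Gata6 and Sox1 and the wider K3R3 region at the right end of the T window. They also include gaps at Sox17, Foxa2 and Pax6 in the stricter K3R3 track, and a few narrow regions found in 1 library.

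In covered length, the loci were dense compared with the genome. When the genome was cut into windows of the same length as a locus, the median window held no covered base in either library at 30 kb. Only 0.371% of windows had at least the wild-type covered length of Sox1, 0.483% that of Olig2, 0.635% that of Cdx2, 0.712% that of Pax6 and 1.69% that of Foxa2. In K3R3 the shares were 0.936%, 0.556%, 0.813%, 0.826% and 1.80%. Sox17 followed at 4.15% (wild type) and 4.40% (K3R3). Gata6 had 5.31% and 8.11%, and T had 6.23% and 4.98%. Among windows of the same chromosome only, the shares ran from 0.122% (Olig2) to 9.16% (T) for the wild type and from 0.183% to 8.48%, at the same 2 loci, for K3R3. Sox1 then had 1.89% in the wild type, behind Olig2, Cdx2 (0.669%) and Pax6 (1.12%). Wild-type covered length exceeds that of K3R3 over the whole of chromosome 8, by a ratio of 1.40. By number of regions, 24.6% (wild type) and 18.3% (K3R3) of all windows held at least as many as Sox17. For Gata6 these shares were 13.8% and 13.5%. For the other loci they ran from 0.607% (Cdx2) to 6.02% (T and Foxa2) in the wild type. In K3R3 they ran from 0.814% (Cdx2) to 9.97% (T). Windows were set around genes, whereas most tiled windows hold no promoter, so these shares describe density and are not a comparison with other genes.

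**Figure D2:**
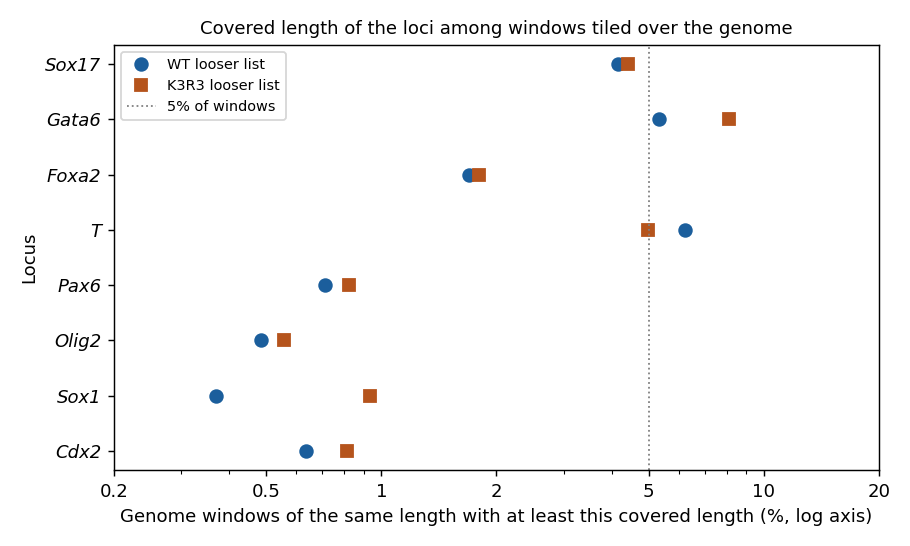
Share of all windows of the same length tiled over the autosomes and X that hold at least the covered length of the locus, in % on a log axis, for the looser list of each library (circles, WT; squares, K3R3); the dotted line marks 5%. The 3 neural loci and Cdx2 lie below 1% in both libraries, Foxa2 at 1.69% and 1.80%, and Sox17, T and Gata6 between 4.15% and 8.11%.

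Covered length was much lower beside several of the windows than in them. Distance to the genes themselves was not measured. In the stretches of equal length on either side, the wild type covered 0 kb left and 0 kb right of the Foxa2 window, against 6.75 kb within it, and K3R3 covered 0.2 and 0.125 kb. Gata6 had 0.4 and 0.25 kb on its sides in the wild type, against 5.375 kb within, and 0.775 and 0.95 kb in K3R3. Pax6 had 1.55 kb on the left and 0 kb on the right in the wild type, against 12.35 kb within, and 2.125 and 0 kb in K3R3. Cdx2 had 3.225 and 1.5 kb on its sides in the wild type, against 7.4 kb within. In K3R3 it had 3.025 and 3.525 kb, against 6.975 kb within. T alone of the 8 had more on a side of its window than in it. Left of the window the wild type had 3.90 kb and K3R3 6.025 kb, against 3.325 and 4.15 kb inside it. Right of the T window the wild type had 0.7 kb and K3R3 3.5 kb.

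Each of the 3 endoderm regulators carried a wild-type region of over 2000 bp, as did T, Pax6 and Sox1. Together the 3 endoderm loci held 15 wild-type and 18 K3R3 regions. Sox17, an HMG-box factor of definitive endoderm, has its window on chromosome 1 from 4.47 to 4.50 Mb. It held 2 wild-type regions, of 2100 bp (4481726 to 4483825) and 1275 bp (4486426 to 4487700). K3R3 had 2000 bp (4481701 to 4483700) and 1300 bp (4486401 to 4487700) at the same places, plus a region of 150 bp (4497951 to 4498100) that neither wild-type list held. The shared edges of the K3R3 regions lay 25 and 125 bp from those of the wild type at the first place and 25 and 0 bp at the second. Covered length was 3.375 kb in the wild type and 3.45 kb in K3R3, a ratio of 0.978.

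Foxa2, a forkhead factor of endoderm, node and floor plate, has its window on chromosome 2 from 147.85 to 147.89 Mb. It held the widest region among the 8 loci, 3625 bp in the wild type (147869226 to 147872850) and 3600 bp in K3R3 (147869226 to 147872825). Counting these, 148 wild-type and 121 K3R3 regions in the whole looser lists were at least as wide. Another 5 places were shared, with wild-type widths of 325 to 925 bp and K3R3 widths of 375 to 900 bp. The wild type alone had a region of 75 bp (147879151 to 147879225), and K3R3 alone had 2 regions of 25 bp, the narrowest width in the lists. Covered length was 6.75 kb in the wild type and 6.775 kb in K3R3, with a Jaccard index of 0.932.

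Gata6, a zinc finger factor of primitive endoderm and later gut and heart, was the endoderm locus at which the libraries differed most. Its window lies on chromosome 18 from 11.04 to 11.10 Mb. The wild type held a region of 3475 bp (11051951 to 11055425), and counting it, 175 wild-type regions of the whole list were at least as wide. K3R3 had 2 regions there, of 1475 bp (11051976 to 11053450) and 1275 bp (11054051 to 11055325), with a gap of 600 bp that the wild type covered in full. The gap was also present in the stricter lists, at 625 bp. A neighbouring wild-type region of 750 bp (11047976 to 11048725) was split in K3R3 into 125 and 400 bp, although the stricter wild-type list split it at the same place into 125 and 400 bp. A further wild-type region, of 225 bp (11049301 to 11049525), was in neither K3R3 list. At the left of the window the order turned, with 375 bp in K3R3 against 200 bp in the wild type. Covered length was 5.375 kb in the wild type and 4.35 kb in K3R3, a ratio of 1.24, where the median over windows of 60 kb on the same chromosome was 0.940 (quartiles 0.783 and 1.04), and 8.72% of 367 windows had a ratio at least as high. Over the autosomes and X the share was 15.8% of 11942 windows.

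The largest K3R3 excess was at T (Brachyury), the T-box factor of mesoderm, in its window on chromosome 17 from 8.61 to 8.65 Mb. The central region was nearly the same in both libraries, 2175 bp in the wild type (8626226 to 8628400) and 2150 bp in K3R3 (8626251 to 8628400). The other regions were narrow. Near the right end, a K3R3 region of 1150 bp (8648126 to 8649275) stood where the wild type had regions of 175 and 225 bp separated by 225 bp, so K3R3 was 2.88 times as wide there. Of the other 4 places, K3R3 was wider at 3 (400 against 275 bp, 275 against 250 bp and 250 against 175 bp) and the wild type at 1 (200 against 150 bp). In the stricter lists that last place had 175 bp against 100 bp, 1.75 times as wide in the wild type. Covered length was 3.325 kb in the wild type and 4.15 kb in K3R3, a ratio of 0.801. Windows of 40 kb on that chromosome had a median of 0.932 (quartiles 0.756 and 1.07). The ratio depends on the outer parts of the window. It was 0.991 with 5 kb taken off both ends and 0.585 with 10 kb added to both.

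The neural regulators had 28.7 kb covered in the wild type and 26.6 kb in K3R3 over their 3 windows, which is 23.9% and 22.1% of the length, next to 24.7% and 23.25% at Cdx2. Pax6, a paired-box factor of eye and neural tube, had the most regions. Its window on chromosome 2 from 105.49 to 105.55 Mb held 14 wild-type and 16 K3R3 regions. All 14 wild-type regions had a K3R3 partner, and the widest was 2125 bp in both libraries (105513701 to 105515825 in the wild type, 105513726 to 105515850 in K3R3). A second broad pair began at the same base, 105508401, and measured 2000 bp in K3R3 against 1950 bp in the wild type. Wild-type regions were at least 1.5 times as wide at 2 places. These were 850 against 550 bp (1.55 times, from 105499576) and 800 against 375 bp (2.13 times, from 105512051), and in each the wild type reached 300 or 350 bp further to the left. K3R3 alone had regions of 300 bp (105496576 to 105496875) and 50 bp (105535501 to 105535550). In the stricter lists, wild-type regions of 1400 and 600 bp were each divided in K3R3, into 750 and 400 bp by a gap of 225 bp (105507501 to 105507725) and into 225 and 25 bp by a gap of 250 bp (105520626 to 105520875). The stricter lists also had a place where K3R3 was 1.80 times as wide, 225 against 125 bp (105523076 to 105523300 in K3R3). Covered length was 12.35 and 12.1 kb, a ratio of 1.02.

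Olig2, a bHLH factor of motor neuron and oligodendrocyte progenitors, was the locus at which the libraries were most alike. Its window on chromosome 16 from 91.21 to 91.24 Mb held 7 regions in each of the 4 lists, each with a partner. Wild-type widths in order were 750, 1225, 1675, 1075, 1600, 125 and 1450 bp, and K3R3 widths 775, 1075, 1675, 1075, 1550, 200 and 1425 bp. Only the narrowest place differed by at least 1.5 times, at 1.60. The fourth region had the same start and end in both libraries (91225101 to 91226175). Covered length was 7.90 kb in the wild type and 7.775 kb in K3R3, and the Jaccard index was 0.935, the highest of the 8 loci.

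Sox1, a SoxB1 factor of early neural ectoderm, lies on chromosome 8, where wild-type regions are in excess over the whole chromosome. Its window from 12.38 to 12.41 Mb held 7 wild-type and 9 K3R3 regions. The 2 broad wild-type regions, of 2500 bp (12384626 to 12387125) and 2975 bp (12394876 to 12397850), were each divided in K3R3 by a gap of 225 bp, the smallest gap found in any of the lists. At the first the outer ends were the same in both libraries, with K3R3 pieces of 900 and 1375 bp. At the second the K3R3 pieces were 750 and 1300 bp and the left 650 bp of the wild-type region was not covered. The wild type was wider at 5 of 6 shared places, and at 68.2% of the 5330 shared places of chromosome 8. Covered length was 8.45 kb in the wild type and 6.70 kb in K3R3, a ratio of 1.26. The ratio of the chromosome was 1.40 and the median over its windows of 30 kb was 1.25 (quartiles 1.08 and 1.51), and 48.5% of 868 such windows had a ratio at least as high as Sox1. Of the K3R3 length, 98.9% lay within wild-type regions, and of the wild-type length 78.4% lay within K3R3 regions. On the left edge of the window the libraries had different narrow regions, 325 bp in the wild type (12382801 to 12383125) and 50 bp in K3R3 (12383351 to 12383400), 225 bp apart.

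Cdx2, a homeobox factor of trophectoderm and of the posterior body axis, had 11 regions in each library in its window on chromosome 5 from 148.10 to 148.13 Mb. The widest was 1525 bp in the wild type (148117526 to 148119050) and 1475 bp in K3R3 (148117526 to 148119000). At 2 of the 10 shared places both edges were the same to the base, and at 9 the left edges lay within 25 bp. The wild type was 1.64 times as wide at 1 place, 900 bp (148115951 to 148116850) against 550 bp, and the stricter K3R3 list had no region there although the stricter wild-type list had 875 bp. Further left the looser lists held neighbouring regions that did not touch, 350 bp in the wild type (148112651 to 148113000) and 275 bp in K3R3 (148112051 to 148112325). The stricter K3R3 list had a region of 300 bp at the wild-type position (148112701 to 148113000), which its looser list lacked. Covered length was 7.40 kb in the wild type and 6.975 kb in K3R3, a ratio of 1.06.

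**Figure D3:**
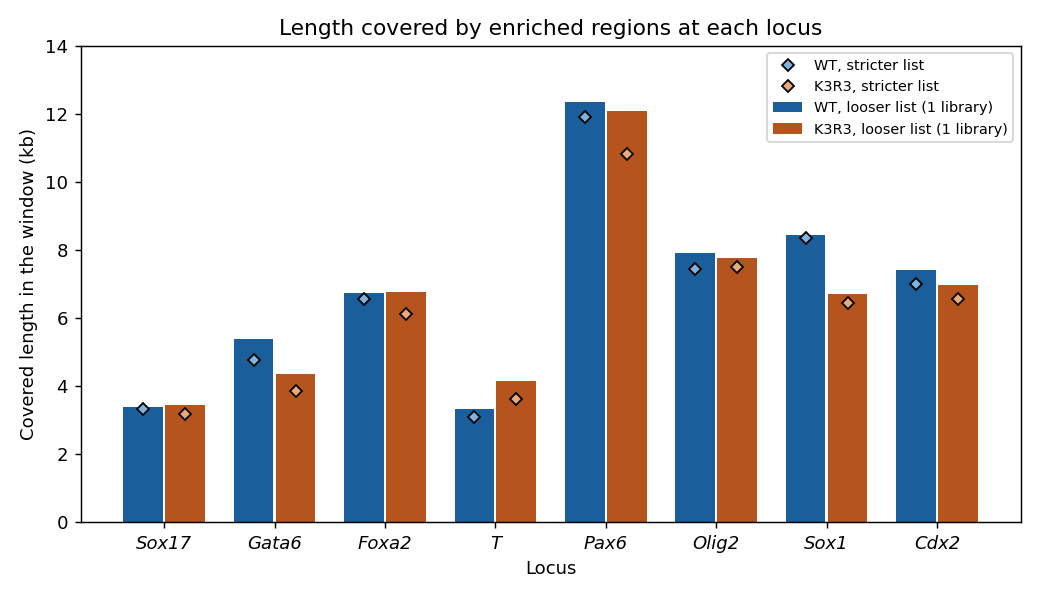
Covered length in the window of each locus in kb, with bars for the looser list of each library (blue, WT; orange, K3R3) and diamonds for its stricter list; each bar is 1 library, without error bars. The pairs of bars are close at Sox17, Foxa2, Pax6, Olig2 and Cdx2 (ratios of 0.978 to 1.06), the wild-type bar is higher at Gata6 (1.24) and Sox1 (1.26), and the K3R3 bar is higher at T (0.801).

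The wild-type to K3R3 ratio of covered length was 1.05 over the 8 loci, 1.02 without Sox1 and 0.934 over the whole lists. No locus reached a difference of 1.5 times in its window (T did, for K3R3, with the window lengthened). Of 13897 windows of 30 kb with at least 1000 bp covered in both libraries, 6.55% did in favour of the wild type and 11.3% in favour of K3R3. Those windows match in length only the loci of 30 kb. Each locus had at least 3.325 kb covered in each library. At Sox17, Foxa2 and Olig2 the ratio crossed 1 between the looser and stricter lists, so no order is given for them. Of the other 5, the wild type covered more at Gata6, Pax6, Cdx2 and Sox1 and K3R3 at T, in both the looser and the stricter lists. Set against the ratio of the whole chromosome, the loci other than T and Sox1 lay on the wild-type side. They did so by 1.12 times (Foxa2) to 1.44 times (Gata6), and T and Sox1 lay at 0.916 and 0.901. Among same-length windows of that chromosome with at least 1000 bp covered in both libraries, 39.7% had a ratio at least as high as Sox17. The share was 37.9% for Foxa2, 33.3% for Pax6, 25.8% for Olig2, 25% for Cdx2 and 8.72% for Gata6. Such ratios were thus common among these windows, though less so for Gata6. Over windows of 60 kb on the autosomes and X, 15.8% of 11942 had a ratio at least as high as Gata6. For T the share on its own chromosome was 70.1%. Sox1, at 1.26, lay near the median of its windows, 1.25. Outside chromosomes 6 and 8, windows of 30 kb with a mean covered length of at least 6 kb had a median ratio of 0.942, and those with 1 to 3 kb 0.945. On chromosome 8 the corresponding medians were 1.31 and 1.20.

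Widths at shared places were close. The loci held 56 shared places, and 51 of them paired 1 wild-type with 1 K3R3 region. The median distance between paired midpoints was 25 bp, which is 1 step of the 25 bp grid of the lists, against 12.5 bp over all shared places, and left and right edges lay within 25 bp in 66.7% each, against 62.9% each over all shared places. The wild type was wider at 29 places (51.8%) and K3R3 at 20 (35.7%), and 7 were equal. Over all shared places the shares were 37.1% and 49.5%. Without Sox1 they were 48% and 38%, against 32.5% and 53.9% outside chromosomes 6 and 8. On the log2 scale, wild-type over K3R3 width averaged 0.0034 at the loci and -0.021 without Sox1, against -0.15 over shared places outside chromosomes 6 and 8. The mean at the loci was near 0 and its sign was not stable. In the looser lists it turned negative without Sox1, and also with Sox1 when regions were joined (-0.080) or windows lengthened (-0.11). In the stricter lists it was 0.054, and 0.028 without Sox1. Each library was at least 1.5 times as wide at 3 of the 56 places (5.36%), against 8.54% (wild type) and 13.9% (K3R3) of all shared places. Without Sox1, K3R3 was wider at 9 of 15 places under 400 bp and at 5 of 21 of at least 800 bp, and outside chromosomes 6 and 8 the shares were 59.3% and 45.9%. In the stricter lists the counts were 8 of 17 and 6 of 20, against 56.7% and 41.7%.

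**Figure D4:**
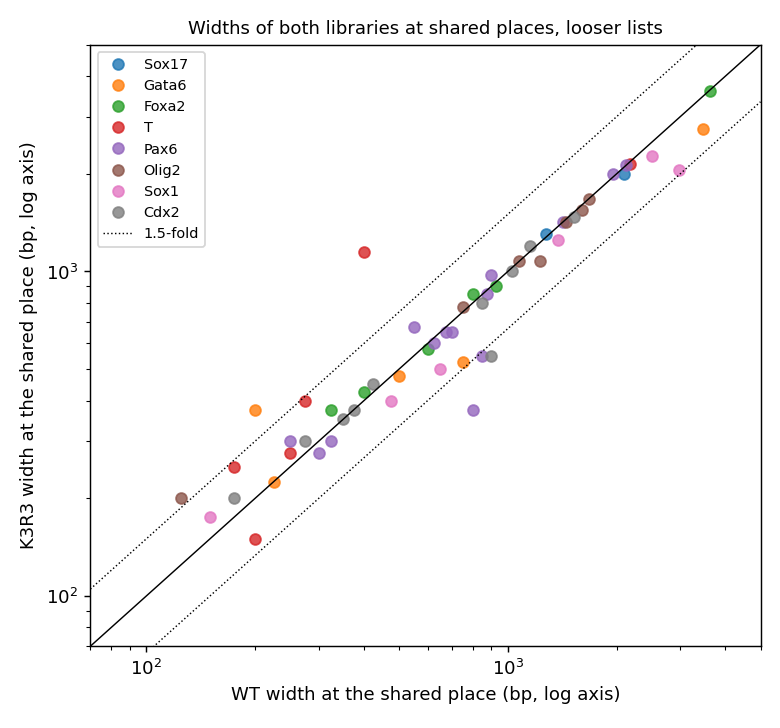
Width in bp of the wild-type (x axis) and K3R3 (y axis) regions at each of the 56 shared places of the looser lists, on log axes and coloured by locus; the solid line marks equal widths and the dotted lines 1.5-fold. Most places lie close to the solid line, with 3 beyond the upper dotted line (T, Gata6 and Olig2) and 3 beyond the lower one (2 at Pax6 and 1 at Cdx2).

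Some broad wild-type regions were interrupted in K3R3. The looser wild-type list had 7 regions of at least 2000 bp at the loci, at Sox17, Gata6, Foxa2, T, Pax6 and, with 2, Sox1. They were 11.5% of the wild-type regions at the loci, against 1.96% of the whole list. In K3R3, 3 of them were divided into several regions, the 1 at Gata6 and the 2 at Sox1, where 24.2% of 1848 such places over the genome were divided. Without Sox1 the count was 1 of 5, near the 20.7% found outside chromosomes 6 and 8. In the stricter lists 5 of the 7 were divided, against 31.0% of 1434. These were the broad regions at all 3 endoderm loci, Sox17, Gata6 and Foxa2, and the 2 at Sox1, while those at T and Pax6 were whole. Without Sox1 the stricter count was 3 of 5. At Sox17 the stricter K3R3 pieces were 1125 and 625 bp with a gap of 225 bp, and at Foxa2 1500 and 1800 bp with a gap of 275 bp. At Gata6 there were 3 pieces, of 825, 325 and 1225 bp, with gaps of 300 and 625 bp. All of these gaps were covered in full by the stricter wild-type list. The 2 regions at Sox1 are on a chromosome where division was more common, with 39.6% of looser and 46.6% of stricter broad wild-type regions, against 20.7% and 26.7% outside chromosomes 6 and 8. Of the single K3R3 regions of at least 2000 bp, 5 looser and 2 stricter, none was divided in the wild type. Over the genome 15.1% of 1644 and 16.2% of 1131 were. With so few regions, no difference from these shares can be read. Places where K3R3 was itself divided are not in this set. Over all widths, a wild-type region was divided in K3R3 at 4 of the 56 places (7.14%, against 2.18% of all; without Sox1 2 of 50, 4%, against 1.90% outside chromosomes 6 and 8) and a K3R3 region in the wild type at 1 (1.79%, against 1.52%). In the stricter lists the counts were 7 of 55 (12.7%, against 2.47%) and 1 (1.82%, against 1.41%). Without Sox1 the first of these was 5 of 49 (10.2%), against 2.22% outside chromosomes 6 and 8. The part of width in these counts was not tested.

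**Figure D5:**
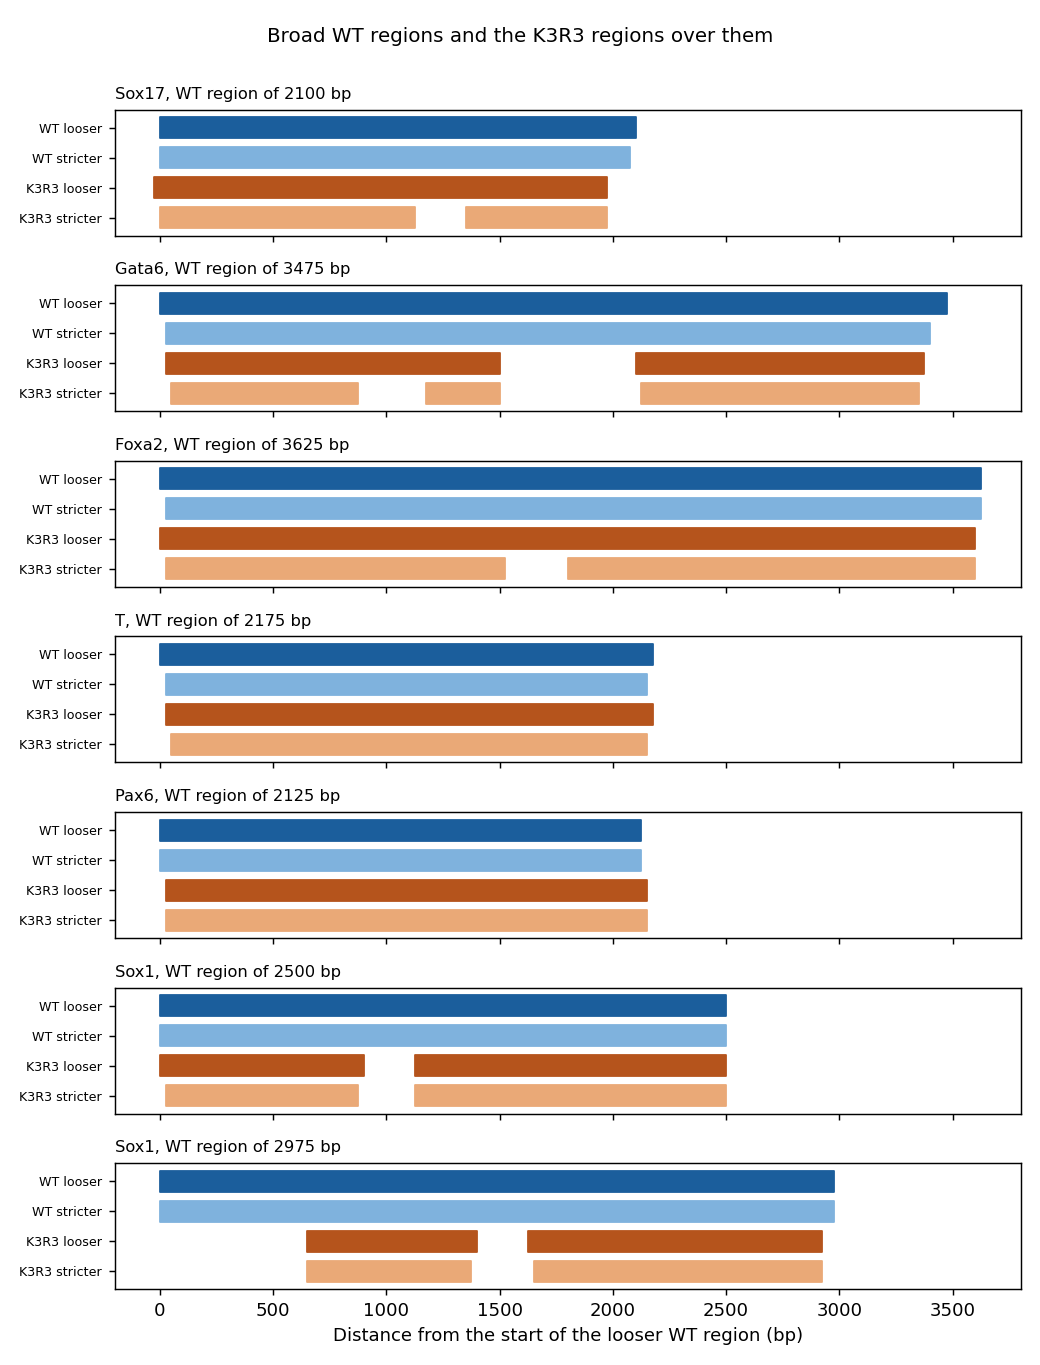
The 7 wild-type regions of at least 2000 bp at the loci with the K3R3 regions over them, in bp from the start of the looser wild-type region, with 1 track for each library and list. The K3R3 tracks are interrupted at Gata6 and at both Sox1 regions in both lists, at Sox17 and Foxa2 in the stricter list only, and are whole at T and Pax6.

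Few regions at the loci were specific to a library, taken as a stricter region with no looser region of the other library over it. The stricter lists are not contained in the looser ones, with 5962 wild-type and 7518 K3R3 stricter regions lacking a looser region of their own library, so a region can count as specific and still be in the stricter list of the other library. There were 4 of 60 in the wild type (6.67%, 2.62 to 15.9), against 17.8% of the whole list, and 3 of 68 in K3R3 (4.41%, 1.51 to 12.2), against 25.7%. The wild-type regions were those of 200 bp at Gata6 (11049301 to 11049500), 25 bp at Pax6 (105529701 to 105529725), 300 bp at Cdx2 (148112676 to 148112975) and 275 bp at Sox1 (12382826 to 12383100). That at Cdx2 was covered to 91.7% by the stricter K3R3 list, and that at Pax6 was absent from the looser wild-type list. The K3R3 regions were those of 125 bp at Sox17 (4497951 to 4498075), 275 bp at Pax6 (105496601 to 105496875) and 275 bp at Cdx2 (148112051 to 148112325), and no wild-type list held them. T, Foxa2 and Olig2 had none in either library. The 7 regions were all at most 300 bp wide. In the whole looser lists only 60.9% of wild-type and 40.2% of K3R3 regions under 200 bp were shared, and regions at the loci were wider than in the lists. The part of width in the low specific shares was not tested.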

How the data were processed

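Regions enriched in YFP-tagged H2A.Z were measured by ChIP-seq in 2 libraries. Each deposited list gives a start and an end per region and no other value. The genome build was mm9 and the tools named were Bowtie 0.12.3 and bedtools, per the submitters' processing notes. The thresholds are named per the file headers. For the region caller, its control and its filters, the sources used here give no name or setting. Regions called at a fixed threshold depend on read depth, which is unknown.

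The windows came from the rule for these genes and the germ-layer groups from general knowledge. Members, lists and measures were chosen with earlier results of these data known, and the width classes and classes of dense windows were set after the regions had been seen. The text names all 8 genes and, at each, the widest region, every library-specific or divided region and every place that differed by at least 1.5 times. Looser lists were the main data. Regions counted if they overlapped the window by at least 1 bp, covered length was taken inside it, and 1 bp made regions shared. Coordinates are 1-based. The threshold, merged lists, joining within 1000 bp, window length, overlap and list length were varied. RefSeq's gene and promoter tables were those of GRCm38.p6, another build, so no region was assigned to an exon, intron or UTR, and no other gene was placed in a window. No expression or histone mark was analysed. Python 3.11.15 with numpy 2.4.6, scipy 1.17.1 and matplotlib 3.10.9 was used. Interval functions were checked against bedtools 2.31.1 and tested on simulated data.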

Additional observations from a re-analysis of the deposited data

How the results depend on the processing

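Under the alternatives, all of them planned, region counts stayed within 1.5 times those reported and 5 to 7 loci were among the top 5% of windows. Depth is unknown and limits every value; the cause was not tested for any shift given here. No paired analysis was possible because there was 1 library in each group. The wild-type to K3R3 ratio of covered length, 1.05, was 1.09 in the stricter lists, 1.05 (1.045) with both lists of a library merged, 1.02 (1.021) with regions within 1000 bp joined, 1.07 in windows shortened by 5 kb, 0.974 in windows lengthened by 10 kb, 1.02 without Sox1, 1.05 (1.054) with equal numbers of regions, 1.05 (1.049) with whole regions at window ends and 1.12 relative to the chromosome. The mean log2 width ratio, 0.0034, was 0.054, 0.0072, -0.080, 0.074, -0.11 and -0.021 under the first 6 of these, and 0.0037 with a single region of each library. Of wild-type regions 98.4% had a K3R3 region within 1000 bp, and with equal numbers of regions 95.2% of K3R3 regions were shared. Joining left 1 wild-type-specific region. Against the 3 K3R3-specific regions reported, 5 stricter K3R3 regions touched no stricter wild-type region, 7 regions of the merged K3R3 lists touched none of the merged wild-type lists, and lengthened windows held 8. By locus, the ratio crossed 1 at Sox17 in the stricter lists (1.05), shortened windows (1.02) and relative to the chromosome (1.14). At Foxa2 it crossed 1 in the stricter lists (1.07), with equal numbers of regions (1.00) and relative to the chromosome (1.12). At Olig2 it was 0.993 in the stricter lists and 0.959 in lengthened windows, at Cdx2 0.927 in lengthened windows, and at Sox1 0.901 relative to the chromosome.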
